A study of Mus musculus with 9 samples.

Results

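The EphA receptors and the ephrin-A ligands of the newborn mouse cortex were followed through 3 *Fezf2* genotypes. The genes were the receptors *Epha3*, *Epha4*, *Epha5*, *Epha6* and *Epha7* and the ligands *Efna1*, *Efna2*, *Efna3*, *Efna4* and *Efna5*, chosen by symbol, and they made up 10 of the 24624 genes in the table. All 10 passed the filter on low values, so none was lost from the tests. RNA was prepared from the dissected cerebral cortex of 9 single mice at P0 (postnatal day 0). There were 3 *Fezf2*+/+ libraries (bc201, bc202 and bc203), 4 *Fezf2*-/- libraries (bc204 to bc207) and 2 *Fezf2*-/-; *Fezf2-EnR* libraries (bc208 and bc209). *Fezf2* encodes a zinc finger transcription factor of deep-layer projection neurons. The null allele carries a reporter, human placental alkaline phosphatase, driven by the *Fezf2* promoter. *Fezf2-EnR* is a bacterial artificial chromosome transgene in which a fusion of the ENGRAILED repressor domain and the FEZF2 DNA-binding domain was placed at the *Fezf2* start codon, so that the fusion is made under *Fezf2* control. It was sequenced here in the null background, and no library analysed here carries it beside intact *Fezf2* alleles. Parents were *Fezf2*+/- and *Fezf2*+/-; *Fezf2-EnR* mice, and a strain is not given in the sources used here.

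The pups came from 3 litters. Litter m1 held 2 *Fezf2*+/+ (bc201, bc202) and 2 *Fezf2*-/- mice (bc205, bc206), litter m2 held 1 *Fezf2*+/+ (bc203) and 1 *Fezf2*-/-; *Fezf2-EnR* mouse (bc209), and litter m3 held 2 *Fezf2*-/- (bc204, bc207) and 1 *Fezf2*-/-; *Fezf2-EnR* mouse (bc208). Libraries held 18716575 to 25127623 reads, and values are reads divided by the size factor of the library, called normalized values here. *Fezf2* itself was at 979 to 1232 in *Fezf2*+/+, 193 to 242 in *Fezf2*-/- and 907 to 1001 in *Fezf2*-/-; *Fezf2-EnR*, so no library went against its label, although reads of the transgene and of the gene cannot be told apart where they share sequence. Genes that mark the cortex were present in every library, and the choroid plexus list summed to 4.38 to 23.1. The female-specific *Xist* was high in *Fezf2*+/+ bc201 and in both *Fezf2*-/-; *Fezf2-EnR* libraries, and the Y-linked *Ddx3y* was high in the other 6. Sex and genotype therefore cannot be told apart between *Fezf2*-/-; *Fezf2-EnR* and *Fezf2*-/-. In *Fezf2*-/-; *Fezf2-EnR* bc209, GC-poor genes were high and GC-rich genes low, which is taken up beside the results it touches.

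Eph receptors are receptor tyrosine kinases, and ephrin-A ligands are held on the cell surface by a lipid anchor, so that signalling needs contact between cells. The ligand activates the receptor (forward signalling), and the ligand-bearing cell also responds (reverse signalling) through co-receptors that cross the membrane. In the developing forebrain the pairing acts mostly through repulsion, and graded EphA and ephrin-A levels order thalamocortical and corticothalamic axons, the spread of neurons among cortical columns, and the boundaries of areas.

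In the annotation of GENCODE M21 (GRCm38, the mm10 build named by the submitters) the receptors lie apart from each other: *Epha3* at chr16:63543534-63864175, *Epha6* at chr16:59653483-60605531, *Epha4* at chr1:77367185-77515088, *Epha5* at chr5:84054761-84417382 (all on the minus strand) and *Epha7* at chr4:28813131-28967499 (plus strand). Of the ligands, *Efna1* (chr3:89271733-89281142), *Efna3* (chr3:89313899-89322965) and *Efna4* (chr3:89333390-89338028) lie side by side on the minus strand. *Efna2* is at chr10:80179482-80190010 (plus strand) and *Efna5* at chr17:62604184-62881317 (minus strand). The receptor genes span 147.9 to 952 kb, and *Efna5* spans 277.1 kb, whereas the other 4 ligand genes span 4.6 to 10.5 kb. The families differ in composition too, since the longest transcripts of the receptors have a GC content of 40.1 to 48%, *Efna5* has 44.8%, and *Efna1* to *Efna4* have 54.2 to 58.5%. Values are given per gene and do not tell isoforms apart.

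Promoters of all 10 genes were found in the RefSeq table (GRCm38.p6), as the 250 bases before the start. They held 7 (*Efna4*) to 32 (*Efna5*) CG dinucleotides, where the median over 27025 genes was 6, and their GC content was 54.4 to 74.8% against a median of 52%. The letters TATAAA, searched on both strands, were in 0 of the 10 and in 12.97% of all promoters. The promoters of *Epha3* (minus strand, chr16:63864176-63864425) and *Epha5* (minus strand, chr5:84417383-84417632) are shown because these 2 receptors had the largest *Fezf2*-/-; *Fezf2-EnR* to *Fezf2*+/+ fold changes of the 10 genes in limma. CG dinucleotides are in capitals, 16 in *Epha3* and 20 in *Epha5*.
*Epha3* promoter: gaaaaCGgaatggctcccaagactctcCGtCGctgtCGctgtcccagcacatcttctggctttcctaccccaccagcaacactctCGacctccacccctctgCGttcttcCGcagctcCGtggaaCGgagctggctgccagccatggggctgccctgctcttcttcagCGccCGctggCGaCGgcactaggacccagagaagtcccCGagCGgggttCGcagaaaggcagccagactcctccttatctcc
*Epha5* promoter: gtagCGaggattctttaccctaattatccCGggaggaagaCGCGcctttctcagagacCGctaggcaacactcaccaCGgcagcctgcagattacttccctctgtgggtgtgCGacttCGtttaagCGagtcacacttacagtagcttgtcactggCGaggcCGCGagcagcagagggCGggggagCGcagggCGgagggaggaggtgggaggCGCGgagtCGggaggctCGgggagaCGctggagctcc
These are reference sequences, and no binding or chromatin was measured at them here.

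To set the levels of the genes side by side, normalized values were divided by the kilobases of exon of each gene. In *Fezf2*+/+ cortices, the highest level per kb was that of *Efna3* (535 ± 71.6, SD, n = 3), followed by *Epha4* (489 ± 30.8), a receptor for both ephrin classes, and *Efna2* (386 ± 50.7). *Epha5* (276 ± 12.6), *Epha3* (269 ± 6.7) and *Epha7* (250 ± 18.8) came next. *Efna5* (148 ± 20.7) and *Efna4* (94.6 ± 5.97) were lower, and *Epha6* (29.4 ± 2.14) and *Efna1* (26.5 ± 3.25) were lowest. The libraries of neighbours in this order overlapped for *Efna3* and *Epha4*, for *Epha5* and *Epha3*, for *Epha3* and *Epha7*, and for *Epha6* and *Efna1*. The top of the order depends on the length used, since dividing by the longest transcript instead put *Epha5* (630) first, *Epha4* (622) after it and *Efna3* (551) next, in these same *Fezf2*+/+ libraries. All 10 genes had reads in every library.

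**Figure D1:**
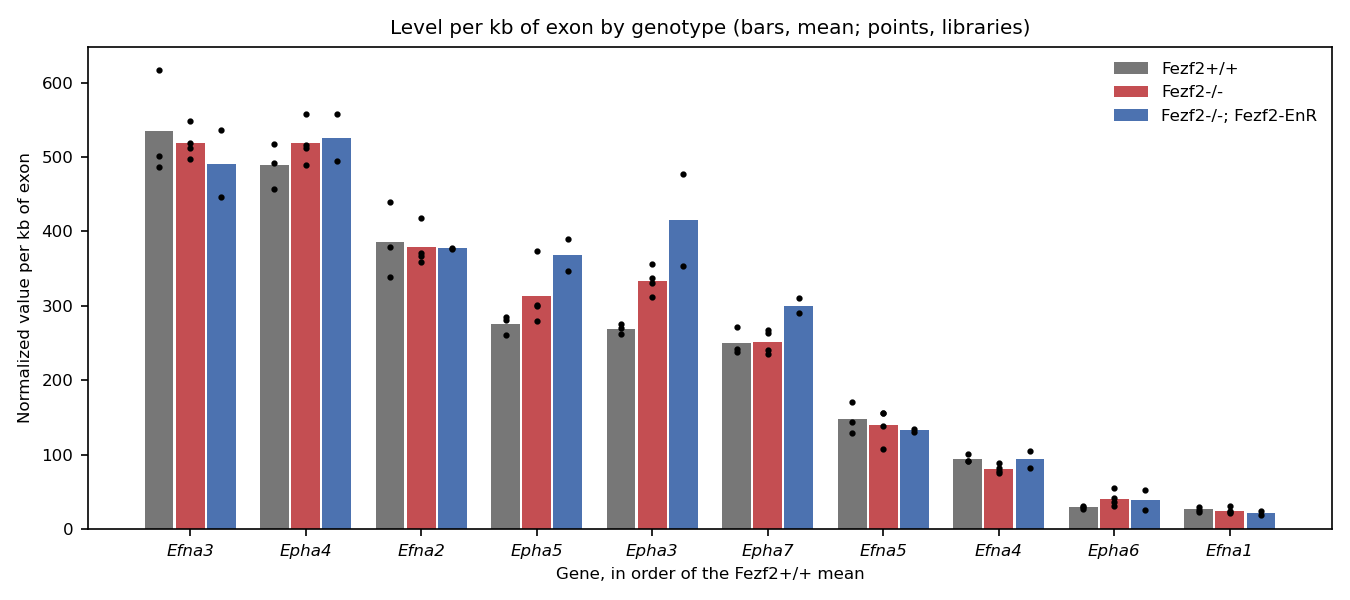
Normalized value per kb of exon (vertical axis) of the 10 genes (horizontal axis, in order of the *Fezf2*+/+ mean); bars are genotype means and points are libraries. *Efna3*, *Epha4* and *Efna2* lead, and *Epha6* and *Efna1* are lowest. The *Epha3*, *Epha4*, *Epha5* and *Epha7* bars are tallest in *Fezf2*-/-; *Fezf2-EnR*, with *Epha4* at 526 there and 519 in *Fezf2*-/-.

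The first comparison asked how the family differed between *Fezf2*-/- and *Fezf2*+/+ cortices. None of the 10 genes passed an adjusted p under 0.05 in limma, where 0.858% of the 16197 genes tested did, and on the recovered reads edgeR (0.877% of all genes) and DESeq2 (1.94%) called 0 of the 10 as well. At an unadjusted p under 0.05 there was 1 of the 10, *Epha3*, against 10.8% of all genes. *Epha3* was at 2347, 2277 and 2392 in *Fezf2*+/+ and at 2929, 2712, 2871 and 3097 in *Fezf2*-/-. The lowest *Fezf2*-/- library was thus above the highest *Fezf2*+/+ library. *Epha3* encodes a receptor that binds several ephrin-A ligands. It was 1.24-fold higher on the log2(value + 1) scale (95% interval 1.08 to 1.43), a log2 fold change of 0.31 ± 0.09 (SE), with an adjusted p of 0.223 from limma. The call depended on the libraries that shared the estimate of spread. With only the 2 groups compared in the fit, the fold change was the same and the adjusted p was 0.0309 in limma. Leaving out *Fezf2*-/-; *Fezf2-EnR* bc208 or bc209 gave nearly the same fit and also called *Epha3*. The 1 library then left in that group adds nothing to the estimate of spread. Over 22 alternatives the adjusted p of *Epha3* ran from 0.0309 to 0.591, and only these 3 fits, which amount to 1 result, were under 0.05. Within litter m1 alone, the 2 *Fezf2*-/- values were above the 2 *Fezf2*+/+ values by 0.27 on the log2 scale. Without *Fezf2*+/+ bc201, the only *Fezf2*+/+ library high in *Xist*, the log2 fold change was 0.31. In bulk tissue, fewer cells of a type and less RNA per cell cannot be told apart, and the same holds for more of either.

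No other receptor reached an unadjusted p under 0.05. *Epha5*, a receptor of cortical and limbic neurons, was at 4707, 4372 and 4763 in *Fezf2*+/+ and at 5025, 5046, 4687 and 6259 in *Fezf2*-/-. The groups overlapped, bc207 stood above the rest, and the log2 fold change was 0.18 ± 0.09 (interval -0.02 to 0.38). *Epha6* was at 166, 158 and 143 in *Fezf2*+/+ and at 219, 193, 164 and 292 in *Fezf2*-/-. Its log2 fold change of 0.45 was the highest of the 10 but had an interval of -0.07 to 0.96, and the 2 highest libraries were both of litter m3. *Epha4*, which binds both ephrin classes, gave 0.09 (interval -0.07 to 0.24), with 3677 to 4171 in *Fezf2*+/+ and 3937 to 4493 in *Fezf2*-/-. *Epha7*, which is graded across cortical areas, gave 0.01 (interval -0.15 to 0.16), so a difference above about 0.16 on the log2 scale lies outside its interval.

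Among the ligands only *Efna4* had groups that did not overlap. It was at 145, 146 and 162 in *Fezf2*+/+ and at 120, 131, 143 and 125 in *Fezf2*-/-, all below *Fezf2*+/+. Its log2 fold change was -0.22 ± 0.12 (interval -0.49 to 0.04), with an adjusted p of 0.557 in limma. It was -0.09 within litter m1 alone, -0.08 with litter as a block, and -0.03 with the block and the length and GC trends removed. Of the 10 genes, 2 (*Epha3* upward and *Efna4* downward) had groups without overlap, and 13.0% of all genes did. *Efna5*, known for its graded level in sensory cortex, was at 583, 521 and 686 in *Fezf2*+/+ and at 436, 631, 561 and 631 in *Fezf2*-/-. *Efna1*, the least abundant, was at 43.1 to 54.9 in *Fezf2*+/+ and 39.9 to 55.6 in *Fezf2*-/-. *Efna2* and *Efna3*, both neuronal ligands, gave log2 fold changes of -0.02 and -0.04 with intervals no wider than 0.21 to either side. All 5 receptors had fold changes above 0 and all 5 ligands below 0, while 8106 of the 16197 genes tested were above 0. Over the 423 genes with 38 to 42% GC and over 8000 bases of exon, as in *Epha3*, *Epha5* and *Epha7*, the median was 0.06. Over the 2726 genes above 54% GC with up to 4000 bases of exon, as in *Efna1* to *Efna4*, it was -0.02. The signs of the 10 genes did not hold throughout, because within litter m1 alone *Epha7* turned to -0.01 and *Efna1*, *Efna2*, *Efna3* and *Efna5* turned to 0.0019, 0.02, 0.03 and 0.11. The median log2 fold change was 0.18 over the receptors, -0.09 over the ligands and 0.00019 over all genes tested.

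**Figure D2:**
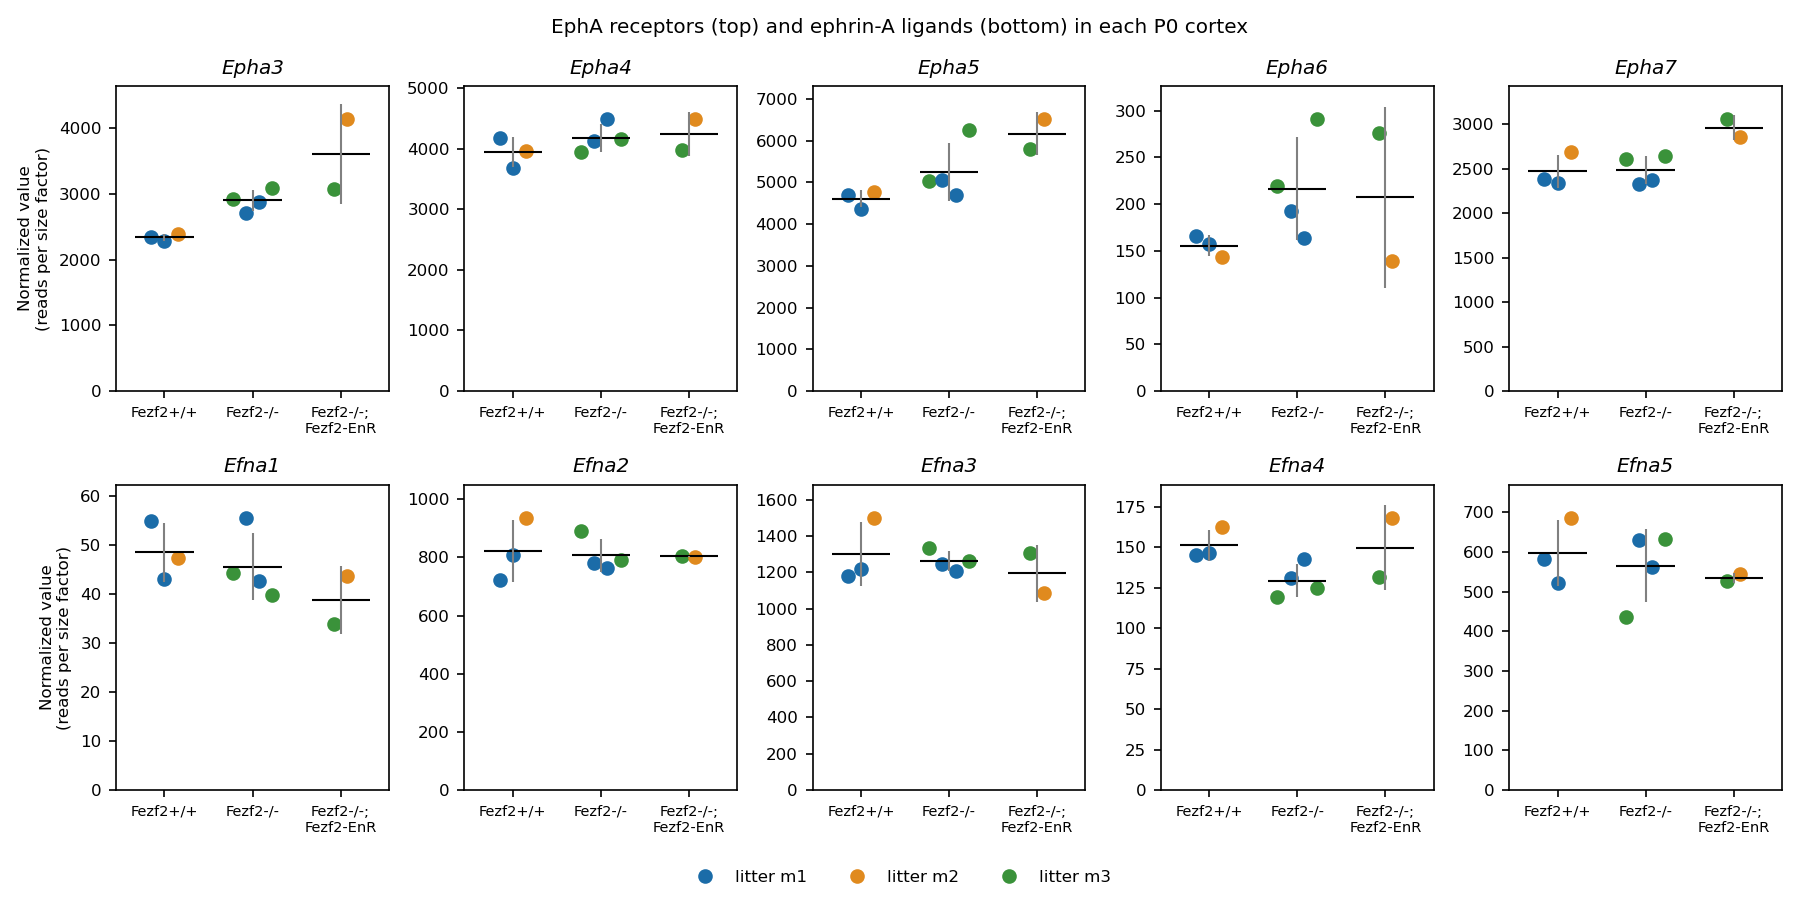
Normalized value (vertical axis, from 0) of each receptor (top row) and ligand (bottom row) in each library, by genotype; colours give the litter, horizontal lines the mean and vertical lines ± 1 SD. *Epha3* in *Fezf2*-/- (2712 to 3097) sits above *Fezf2*+/+ (2277 to 2392), and bc209 at 4147 is far from bc208 at 3068.

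The next comparison was *Fezf2*-/-; *Fezf2-EnR* against *Fezf2*-/-, which differ in the transgene and, in these libraries, also in sex. *Fezf2*-/-; *Fezf2-EnR* bc209 came from litter m2, which held no *Fezf2*-/- library. This comparison shares the *Fezf2*-/- libraries with the first. None of the 10 genes was called by limma (0.766% of all genes were), edgeR (0.704%) or DESeq2 (2.78%), and 3 (*Epha3*, *Epha5* and *Epha7*) had an unadjusted p under 0.05, against 16.9% of all genes. *Epha7* was at 3064 and 2864 in *Fezf2*-/-; *Fezf2-EnR*, above the 2330 to 2642 of *Fezf2*-/-. This was the only one of the 10 without overlap, where 24.6% of all genes had none, and its log2 fold change was 0.25 ± 0.08 (interval 0.08 to 0.43, adjusted p of 0.178 from limma). *Epha3* was at 3068 and 4147 in *Fezf2*-/-; *Fezf2-EnR*. The lower of these lay within the *Fezf2*-/- values (2712 to 3097) and the higher lay far above them. The log2 fold change of 0.30 ± 0.10 (adjusted p of 0.202 in limma) became 0.08 without *Fezf2*-/-; *Fezf2-EnR* bc209, and 0.52 without *Fezf2*-/-; *Fezf2-EnR* bc208. Of 21 alternatives, only the fit without bc208 called *Epha3*. That fit leaves bc209 alone in its group, the library in which GC-poor genes were high, and it called many more genes than the main fit. Within litter m3, bc208 differed from the 2 *Fezf2*-/- littermates by 0.03. *Epha5* was at 5798 and 6527 in *Fezf2*-/-; *Fezf2-EnR*, with a log2 fold change of 0.24 (interval 0.0047 to 0.47), and within litter m3 it was 0.05. *Epha4* and *Efna2* differed by 0.02 or less. *Epha6*, *Efna1*, *Efna3* and *Efna5* gave log2 fold changes of -0.11, -0.23, -0.08 and -0.06, each with an interval that included 0. *Efna4* was at 131 and 168 in *Fezf2*-/-; *Fezf2-EnR*, and its log2 fold change of 0.20 had an interval of -0.10 to 0.50.

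Set against *Fezf2*+/+, which is the control of the first comparison again, the *Fezf2*-/-; *Fezf2-EnR* cortices gave the largest fold changes of *Epha3*, *Epha5* and *Epha7*. Of the 10 genes, limma called 0 where it called 0.117% of all genes (19 genes, and 32 with litter as a block, 0 of them among the 10). edgeR also called 0 (0.0926% of all genes). DESeq2 called 2, *Epha3* (log2 fold change 0.62, adjusted p of 8.8e-05) and *Epha5* (0.42, adjusted p of 0.0186), where it called 3.96% of all genes. An unadjusted p under 0.05 in limma was reached by *Epha3*, *Epha5* and *Epha7*, against 19.3% of all genes. These same 3 receptors were higher in both *Fezf2*-/-; *Fezf2-EnR* libraries than in all 3 *Fezf2*+/+ libraries, and 34.6% of all genes had groups without overlap in either direction (17.3% upward). *Epha3* was 1.53-fold higher (95% interval 1.29 to 1.80), a log2 fold change of 0.61 ± 0.11 with an adjusted p of 0.0862 in limma. Its value in litter m2 was 0.79, from 2392 in *Fezf2*+/+ bc203 to 4147 in *Fezf2*-/-; *Fezf2-EnR* bc209. Without bc209 the log2 fold change was 0.39. Without *Fezf2*-/-; *Fezf2-EnR* bc208, which leaves bc209 alone in its group, it was 0.83. Without *Fezf2*+/+ bc203 it was 0.63 with an adjusted p of 0.0490 in limma. Both fits called many more genes than the main fit. Of 21 alternatives, these 2 fits and DESeq2 were the 3 that called *Epha3*, and the lowest adjusted p was the 8.8e-05 of DESeq2. The 3 female libraries, *Fezf2*+/+ bc201 and both *Fezf2*-/-; *Fezf2-EnR*, were at 2347, 3068 and 4147.

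*Epha5* was 1.33-fold higher (95% interval 1.13 to 1.58, adjusted p of 0.127 in limma), with 4372 to 4763 in *Fezf2*+/+ against 5798 and 6527, and over 21 alternatives its adjusted p ran from 0.0186 to 0.730. *Epha7*, at 2388, 2346 and 2687 in *Fezf2*+/+, was 1.20-fold higher in *Fezf2*-/-; *Fezf2-EnR* (95% interval 1.05 to 1.37, adjusted p of 0.159), a log2 fold change of 0.26 that was 0.09 within litter m2 and 0.15 with litter as a block. *Epha6* split the 2 *Fezf2*-/-; *Fezf2-EnR* libraries, at 276 in bc208 and 139 in bc209, so that its log2 fold change of 0.33 had an interval of -0.29 to 0.95. *Epha4*, *Epha6* and the 5 ligands had groups that overlapped, with *Epha4* at 3981 and 4494 in *Fezf2*-/-; *Fezf2-EnR* and a log2 fold change of 0.11 (interval -0.08 to 0.29). The ligands' fold changes ran from -0.32 for *Efna1* (33.9 and 43.7 in *Fezf2*-/-; *Fezf2-EnR*) to -0.02 for *Efna4*. *Efna5* was at 526 and 544 in *Fezf2*-/-; *Fezf2-EnR*, with a log2 fold change of -0.15 (interval -0.51 to 0.21). *Efna3* was at 1183, 1220 and 1502 in *Fezf2*+/+ and 1305 and 1085 in *Fezf2*-/-; *Fezf2-EnR*, and *Efna2* was at 805 and 803 in *Fezf2*-/-; *Fezf2-EnR*, inside the 722 to 937 of *Fezf2*+/+. Within litter m2, from 1 library each, the log2 differences of *Efna3* and *Efna2* were -0.47 and -0.22, against -0.12 and -0.02 over all libraries. The *Fezf2*-/-; *Fezf2-EnR* library of that litter was bc209, in which GC-rich genes were low. With the length and GC trends removed, *Efna3* and *Efna2* gave 0.0049 and 0.16 over all libraries.

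**Figure D3:**
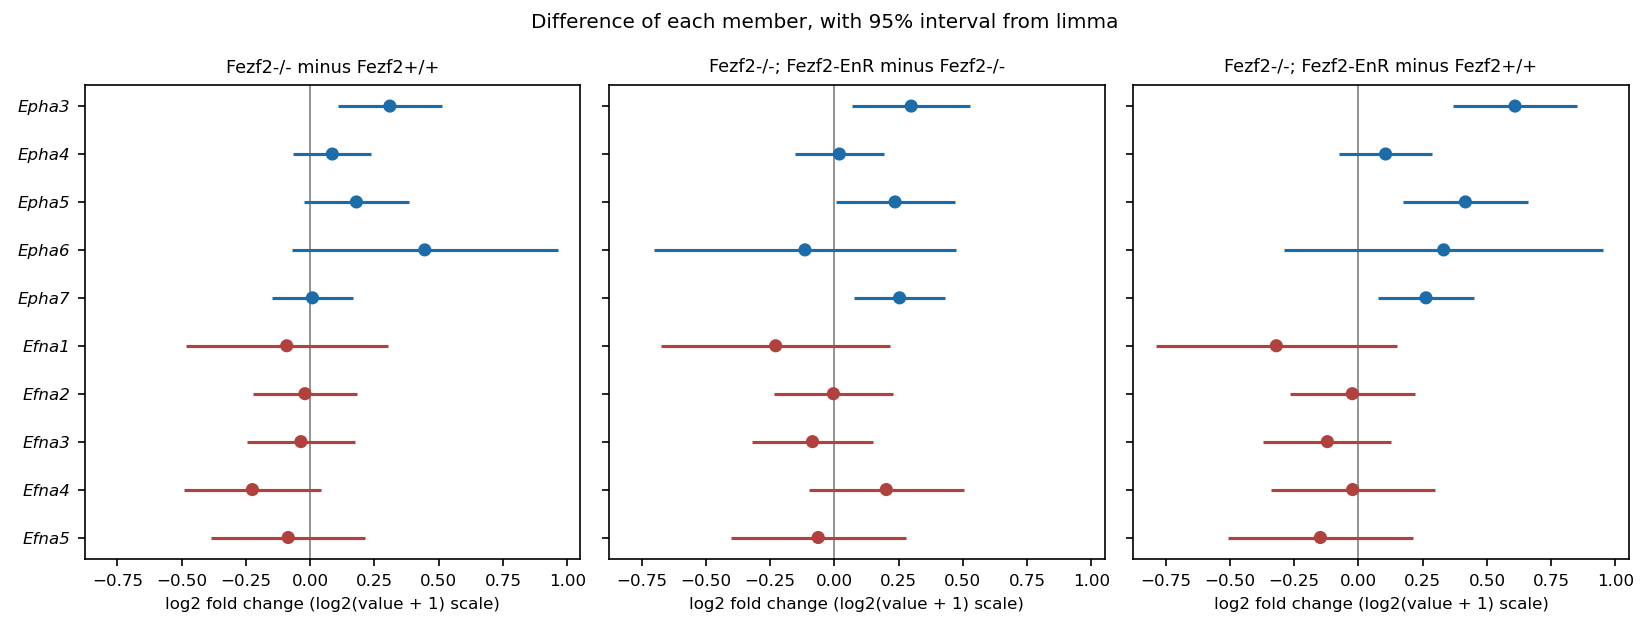
Log2 fold change (horizontal axis, log2(value + 1) scale) of each gene in the 3 comparisons, with 95% intervals from limma; receptors are blue and ligands red. The *Epha3* interval lies above 0 in all 3 panels (0.11 to 0.51, 0.07 to 0.53 and 0.37 to 0.85), the *Epha5* and *Epha7* intervals in the panels with *Fezf2-EnR*, and all ligand intervals include 0.

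Summed over the family, the receptors gave 12830 to 13947 in *Fezf2*+/+, 14404 to 16447 in *Fezf2*-/-, and 16189 and 18171 in *Fezf2*-/-; *Fezf2-EnR*. The lowest *Fezf2*-/- sum lay above the highest *Fezf2*+/+ sum, and 13.0% of single genes had groups without overlap in that comparison. *Epha5*, *Epha4* and *Epha3* make up most of each sum, and all have over 8000 bases of exon. Genes of that length had medians of -0.03, -0.10 and -0.04 in *Fezf2*+/+, on the log2 scale against the mean of the 9 libraries. In *Fezf2*-/- these medians ran from -0.03 to 0.09. The part of this trend in the sums was not tested. The ligands gave 2688 to 3335 in *Fezf2*+/+, 2721 to 2849 in *Fezf2*-/-, and 2802 and 2644 in *Fezf2*-/-; *Fezf2-EnR*, with overlap throughout. Per kb of exon, the ratio of receptors to ligands was 0.997 to 1.23 in *Fezf2*+/+, 1.22 to 1.37 in *Fezf2*-/-, and 1.36 and 1.60 in *Fezf2*-/-; *Fezf2-EnR*, where bc209 again stood highest. The *Fezf2*+/+ and *Fezf2*-/- ratios overlapped. The size of the ratio depends on the length used, as the order of levels did, so it does not show receptors and ligands to be about equal.

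The composition of the transcripts moved with these differences. In *Fezf2*-/-; *Fezf2-EnR* bc209, genes with a GC content of 38 to 42% were above the mean of the 9 libraries by a median of 0.17 on the log2 scale, and genes above 58% were below it by a median of -0.19. *Epha3*, *Epha5* and *Epha7* have 41.9, 40.1 and 41.7% GC and long exons, and in bc209 they were above the mean by 0.55, 0.33 and 0.15. Over the 423 genes with 38 to 42% GC and over 8000 bases of exon, the median log2 fold change was 0.06 for *Fezf2*-/- against *Fezf2*+/+, 0.16 for *Fezf2*-/-; *Fezf2-EnR* against *Fezf2*-/- and 0.21 for *Fezf2*-/-; *Fezf2-EnR* against *Fezf2*+/+. Over the 2726 genes above 54% GC with up to 4000 bases of exon it was -0.02, -0.10 and -0.13 in the same order. With the trends over exon length and GC content removed from each library, a step chosen after seeing the data, *Epha3* gave 0.27 for *Fezf2*-/- against *Fezf2*+/+ (adjusted p of 0.128 in limma), 0.17 for *Fezf2*-/-; *Fezf2-EnR* against *Fezf2*-/- and 0.44 for *Fezf2*-/-; *Fezf2-EnR* against *Fezf2*+/+ (adjusted p of 0.0953). *Epha5* then gave 0.10, 0.04 and 0.13, and *Epha7* gave -0.06, 0.11 and 0.06. The *Epha3* difference from *Fezf2*+/+ thus changed less under this step than those of *Epha5* and *Epha7*. The same receptors in bc208, where the medians by GC content ran from -0.01 to 0.05, were above the mean by 0.12 (*Epha3*), 0.16 (*Epha5*) and 0.25 (*Epha7*). In that library genes with over 8000 bases of exon were above the mean by a median of 0.055. With both trends removed, bc208 was above the mean by 0.067 (*Epha3*), 0.069 (*Epha5*) and 0.19 (*Epha7*).

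**Figure D4:**
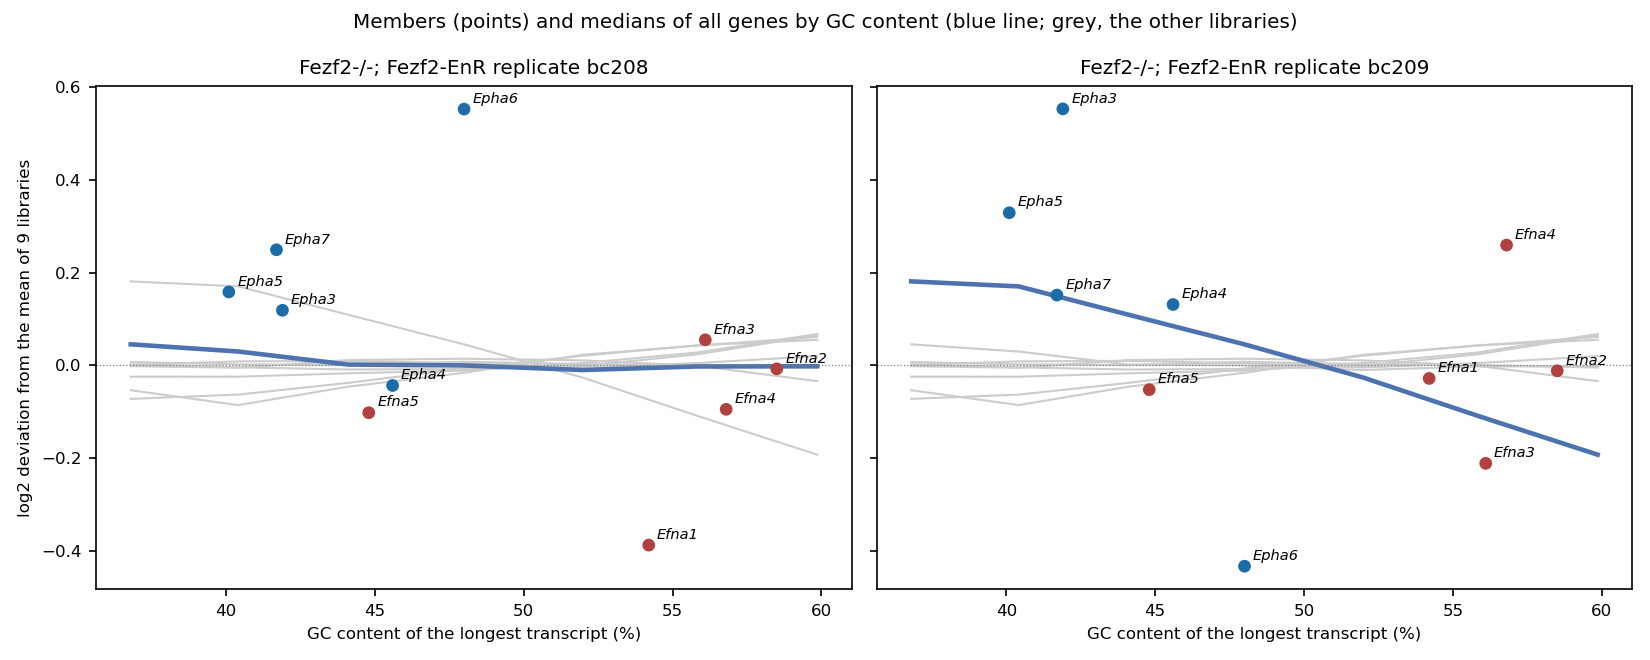
Log2 deviation from the mean of the 9 libraries (vertical axis) against GC content of the longest transcript (horizontal axis, %) in both *Fezf2*-/-; *Fezf2-EnR* libraries; the blue line joins the medians of all genes by GC content, grey lines are the other 8 libraries, and points are the 10 genes. In bc209 the line falls from 0.17 at 38 to 42% to -0.19 above 58%, and *Epha3* (0.55) lies above it.

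The values of *Epha6* went with litter. *Epha6* was at 219, 292 and 276 in the 3 libraries of litter m3 and at 139 to 193 in the other 6, with no overlap and in both genotypes of that litter, and 4.64% of all genes were higher in litter m3 in this way. In the fit with litter as a block the m3 to m1 difference of *Epha6* was 0.57 ± 0.14 on the log2 scale (adjusted p of 0.0527 in limma, where 4.13% of all genes passed), and in *Fezf2*-/- alone it was 0.51. With that block, the *Fezf2*-/- to *Fezf2*+/+ log2 fold change of *Epha6* was 0.07. For *Epha7* the m3 to m1 difference was 0.19 (adjusted p of 0.0911), but its m3 libraries (2606, 2642 and 3064) overlapped those of litter m2 (2687 and 2864). The lowest adjusted p of a ligand for that term was 0.241, for *Efna3*.

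Some cell type markers also moved with genotype, while the sums of other lists overlapped between genotypes. Summed values of 6 corticothalamic genes were 8233 to 9097 in *Fezf2*+/+, 2327 to 3083 in *Fezf2*-/- and 7879 to 9375 in *Fezf2*-/-; *Fezf2-EnR*. Of these 6, limma called 5 lower in *Fezf2*-/- than in *Fezf2*+/+, where it called 0.858% of all genes. Of 5 subcerebral genes, 3 were called lower in *Fezf2*-/- than in *Fezf2*+/+. The marker lists were chosen with earlier results of these data known, so these counts are no independent measure of a shift in cell types. Interneuron genes summed to 5867 to 6197 in *Fezf2*+/+, 7359 to 8365 in *Fezf2*-/- and 5983 to 6868 in *Fezf2*-/-; *Fezf2-EnR*, and radial glia and astrocyte genes to 12118 to 12571, 12867 to 15245, and 13719 to 15362. Oligodendrocyte precursor genes summed to 4849 to 5148 in *Fezf2*+/+, 5512 to 5780 in *Fezf2*-/-, and 5391 and 5411 in *Fezf2*-/-; *Fezf2-EnR*, and proliferation genes to 1224 to 1827, 1446 to 2050, and 1995 and 2655. The striatal sum was 1301 to 1481 in *Fezf2*+/+ and ran from 669 to 3346 within *Fezf2*-/-, with bc204 highest, and the 2 *Fezf2*-/-; *Fezf2-EnR* libraries split, at 2419 in bc208 and 1030 in bc209. None of the interneuron, glial, precursor, proliferation or striatal genes was called. Callosal genes had 0 calls too, and their sums overlapped between genotypes. They were 32447 to 34381 in *Fezf2*+/+, 25436 to 38886 in *Fezf2*-/-, and 25634 and 33426 in *Fezf2*-/-; *Fezf2-EnR*. Endothelial, pericyte and microglia genes also had 0 calls. The 11 areal genes, which mark or pattern cortical areas, had 1 call, against the same 0.858% of all genes. It was *Bhlhe22*, lower in *Fezf2*-/- than in *Fezf2*+/+ (log2 fold change -0.45, adjusted p of 0.0432 in limma). *Bhlhe22* is also on the subcerebral list above, so the same call is counted in both lists. The areal gene *Sp8* was not called but was 0.77 higher in *Fezf2*-/- than in *Fezf2*+/+ on the log2 scale (adjusted p of 0.0511 in limma). In *Fezf2*-/-; *Fezf2-EnR* it was 0.71 higher than in *Fezf2*+/+ (adjusted p of 0.127 in limma). The part of these cell types and areas in the receptor values was not tested.

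Of the genes around the family, 44 were listed (other Eph and ephrin genes, forward signalling, co-receptors and enzymes) and 43 passed the filter. They were chosen with earlier results of these data known. limma called 2 of the 43, both lower in *Fezf2*-/- than in *Fezf2*+/+, where 0.858% of all genes were called. Both were also called higher in *Fezf2*-/-; *Fezf2-EnR* than in *Fezf2*-/- (0.766% of all genes called). Between *Fezf2*-/-; *Fezf2-EnR* and *Fezf2*+/+ 0 of the 43 were called (0.117% of all genes). The first of the 2 called genes was *Ngfr*, the p75 neurotrophin receptor, which serves as a co-receptor of ephrin-A ligands in reverse signalling. *Ngfr* was at 340, 390 and 337 in *Fezf2*+/+, at 50.2, 56.7, 54.2 and 73.1 in *Fezf2*-/-, and at 297 and 417 in *Fezf2*-/-; *Fezf2-EnR*. It fell by 2.60 on the log2 scale in *Fezf2*-/- (SE 0.16, adjusted p of 1.02e-05), rose by 2.58 from *Fezf2*-/- to *Fezf2*-/-; *Fezf2-EnR* (SE 0.18, adjusted p of 5.54e-05), and *Fezf2*-/-; *Fezf2-EnR* differed from *Fezf2*+/+ by -0.01 (interval -0.43 to 0.40). The other was *Ephb1*, a receptor for ephrin-B ligands that turns retinal axons away from the midline. The study had already reported *Ephb1* as reduced in *Fezf2*-/- and restored with *Fezf2-EnR*, by RNA-seq and in situ hybridization. *Ephb1* was at 2375, 2238 and 2007 in *Fezf2*+/+, at 1385, 1297, 1092 and 1232 in *Fezf2*-/-, and at 2305 and 2319 in *Fezf2*-/-; *Fezf2-EnR*. It fell by 0.82 in *Fezf2*-/- (SE 0.09, adjusted p of 0.00089) and was 0.89 higher in *Fezf2*-/-; *Fezf2-EnR* than in *Fezf2*-/- (SE 0.10, adjusted p of 0.00216). For both genes *Fezf2*-/- stood apart from the other 2 genotypes, which overlapped, whereas the *Epha3* values in *Fezf2*-/-; *Fezf2-EnR* lay with or above those in *Fezf2*-/-.

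The other EphA receptors were scarce or without a call. *Epha1* had 0 to 2 reads in each library and was not tested. *Epha2*, mostly a receptor of epithelia, was at 11.6 to 35.8, highest in the 2 *Fezf2*-/-; *Fezf2-EnR* libraries. *Epha8* was at 268 in *Fezf2*-/-; *Fezf2-EnR* bc209 and 346 to 521 in the other 8 libraries, and *Epha10*, whose kinase domain is thought inactive, was at 28.4 in bc209 and 61.1 to 97.2 in the others. The median log2 fold change of these 3 tested receptors was 0.21 in *Fezf2*-/- against *Fezf2*+/+, -0.43 in *Fezf2*-/-; *Fezf2-EnR* against *Fezf2*-/- and -0.33 in *Fezf2*-/-; *Fezf2-EnR* against *Fezf2*+/+. The 3 ephrin-B ligands had medians of 0.10, 0.08 and 0.22 in the same order, and the 25 forward signalling genes 0.03, 0.06 and 0.10, with 0 calls in each comparison. Antisense genes overlap exons of *Epha6*, *Efna3* and *Efna4*. Whether strand was used in the counting is not given in the sources used here, and these antisense genes were at 0 to 2.09, 0 to 3.28 and 1.05 to 8.42, far below the genes they overlap.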

How the data were processed

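Total RNA from the cortical hemispheres of each of 9 P0 mice was made into poly(A) libraries and sequenced by the authors; the labels name a NovaSeq and the study's methods a HiSeq instrument. The deposited values are a normalized signal per gene, the authors' counts divided by a size factor for each library. STAR, Bowtie, DESeq and the mm10 build are named in the submitters' processing notes, and the methods name TopHat. The annotation release, the counting tool and the use of strand are not given in the sources used here. Columns of samples not used numbered 0.

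The main test was limma 3.58.1, run in R 4.3.3 with lmFit and a trended eBayes on log2(value + 1), for 16197 genes whose mean over the 9 libraries was 10 or more. All libraries entered one fit with 1 coefficient per genotype and no covariate, and p-values were adjusted by Benjamini-Hochberg over all genes tested. Values named in the text as fold changes, standard errors and 95% intervals come from this fit. It was also run on simulated counts, which held no litter effect and no trend with GC content or length, so that run does not bear on those features. Since the fold change is taken on log2(value + 1), it understates the change of genes at low values. Whole reads were recovered in 100% of values of all 9 libraries (tolerance 0.1 reads). In bc204 and bc208 1 read was worth 1.0043 and 0.99561, and a step of exactly 1 would have given whole numbers in 6.00 and 2.30% of values from 20 to 200. edgeR 4.0.16 and DESeq2 1.42.0 were run on those reads as alternatives.

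Other alternatives were pseudocounts of 0.1 and 10, a mean of at least 50 or no filter, median-ratio and TMM rescaling, litter m1 alone, a litter block, values within litters m2 and m3, a fit of only the 2 groups in question, each library left out and an unadjusted threshold. The labels state litters, which pair mice across genotypes, and replicate names are not shared between genotypes. The removal of trends with exon length and GC content, alone and with the block, and the litter terms were added after seeing the data. GENCODE M21 (GRCm38) gave positions, lengths and GC content for 24595 of the 24624 identifiers, and RefSeq gave promoters. No protein sequence was used here. The members, the marker lists and the lists of related genes were chosen with earlier results of these data known. Every member is named, and of the related genes those called in at least 1 comparison, and the other EphA receptors were added after their values were seen. Python 3.11.15, pandas 2.3.3, NumPy 2.4.6 and matplotlib 3.10.9 were used for tables and plots.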

Additional observations from a re-analysis of the deposited data

Results flagged for a closer look

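In the 4 *Fezf2*-/- libraries, 3 of 33 sets of values examined had 1 library far from the other 3, by a test that flags about 1 in 20 groups (5%) by chance. The summed receptor value was 16447 in bc207 (16447.5), against 14404 to 14715 in the others, with *Epha5* at 6259 and *Epha6* at 292 in that library. The summed ligand value was lowest in bc206, at 2721 (2720.98), against 2827 to 2849 in the others. The summed value of the striatal genes was highest in bc204, at 3346 (3346.39). In that library *Epha3* was at 2929 and *Efna5* at 436, the lowest of the *Fezf2*-/- values of *Efna5*. The part of striatal tissue in these values was not tested.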

How the results depend on the processing

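No shared replicate numbers exist in the labels, so litter served as the replicate block, and in that block 0 of the 10 genes was called in any comparison. Genes called in *Fezf2*-/- against *Fezf2*+/+ numbered 139 (DESeq2 315, litter m1 alone 233, only the 2 groups compared 221, unadjusted p 1752), 66 to 217 with 1 library left out. In *Fezf2*-/-; *Fezf2-EnR* against *Fezf2*-/- they numbered 124 (450 in DESeq2, 67 with only the 2 groups compared, 2741 unadjusted), 21 to 1088 with 1 library left out. Against *Fezf2*+/+ they numbered 19 (641 in DESeq2, 32 with the litter block, 10 with a mean of at least 50, 12 with only the 2 groups compared, 3118 unadjusted), 8 to 491 with 1 library left out. Of the 10 genes, 1 was called with only the 2 groups compared and 1 unadjusted in the first comparison, 3 unadjusted in the second, and 2 in DESeq2 and 3 unadjusted in the third, and 0 to 1 with 1 library left out in each. The highest counts came without *Fezf2*-/-; *Fezf2-EnR* bc208 (1088 and 491) or bc209 (217) and the lowest without bc209 (21 and 8) or *Fezf2*+/+ bc201 (66), and the third comparison gave 181 without *Fezf2*+/+ bc203. The first comparison gave 71 to 88 without bc202, bc203, bc205 or bc206 and 214 without bc208, the second 49 to 68 without bc202, bc205 or bc206, and the third 12 without bc202 and 32 without bc207. With 1 *Fezf2*-/-; *Fezf2-EnR* library left, that library is assumed to vary like the other groups. The cause of these shifts was not tested. With 2 such libraries the 95% interval against *Fezf2*+/+ reached 0.18 (*Epha4*) to 0.62 (*Epha6*) to either side on the log2 scale. A call after adjustment over all genes can need a larger difference than that. *Epha3*, at 0.61 with 0.24 to either side, had an adjusted p of 0.0862 in limma.

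The pseudocounts, the filters, both rescalings and edgeR turned no sign and called none of the 10 genes in any comparison, with *Efna1* below the filter at a mean of at least 50. Log2 fold changes turned sign under these other alternatives. For *Fezf2*-/- against *Fezf2*+/+, the removal of the length and GC trends gave 0.0024 for *Efna2* and -0.055 for *Epha7*. The litter block gave 0.011 for *Efna5*, 0.043 for *Efna1* and -0.036 for *Epha7*. Both together gave 0.02 for *Efna5*, 0.082 for *Efna1*, 0.041 for *Efna2* and -0.12 for *Epha7*. Litter m1 alone gave 0.031 for *Efna3*, 0.11 for *Efna5*, 0.0019 for *Efna1*, 0.018 for *Efna2* and -0.0092 for *Epha7*. With 1 library left out, *Efna1* ran from -0.19 to 0, *Efna2* ran from -0.11 to 0.078, *Efna3* ran from -0.10 to 0.071, *Efna5* ran from -0.18 to 0.034 and *Epha7* ran from -0.028 to 0.070. For *Fezf2*-/-; *Fezf2-EnR* against *Fezf2*-/-, the removal of the length and GC trends gave -0.063 for *Epha4*, 0.013 for *Efna3* and 0.15 for *Efna2*. The litter block gave 0.023 for *Epha6* and -0.0001 for *Epha4*. Both together gave -0.050 for *Epha4* and 0.0094 for *Efna2*. With 1 library left out, *Efna2* ran from -0.029 to 0.045, *Efna3* ran from -0.22 to 0.048, *Epha4* ran from -0.068 to 0.11 and *Epha6* ran from -0.61 to 0.38. For *Fezf2*-/-; *Fezf2-EnR* against *Fezf2*+/+, the removal of the length and GC trends gave -0.022 for *Epha4*, 0.0049 for *Efna3*, 0.13 for *Efna4* and 0.16 for *Efna2*. The litter block gave 0.035 for *Efna4*. Both together gave 0.18 for *Efna4*, 0.050 for *Efna2* and -0.034 for *Epha7*. With 1 library left out, *Efna2* ran from -0.11 to 0.074, *Efna3* ran from -0.25 to 0.012, *Efna4* ran from -0.20 to 0.15 and *Epha6* ran from -0.16 to 0.82. Values within litters, with no test, also turned sign. Against *Fezf2*-/- within litter m3 these were 0.13 for *Epha6*, -0.02 for *Epha4*, 0.0078 for *Efna3* and 0.0031 for *Efna5*, and against *Fezf2*+/+ within litter m2 they were -0.05 for *Epha6* and 0.05 for *Efna4*.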
